A study of Mus musculus with 7 samples.

Results

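The genes described here are the transcription factor ATF4, the stress factors that act with it and a set of its direct targets, measured in hearts of mice labelled as knockout for the chromatin remodelling ATPases Brg1 (gene Smarca4) and Brm (gene Smarca2) and of mice labelled wild type. The 10 members are Atf3, Atf4, Atf5, Ddit3, Nupr1, Ddit4, Trib3, Asns, Chac1 and Fgf21. They were taken as every non-control probe that carries one of these names on the array, which gave 15 of 56605 probes, and 5 members had more than 1 probe. The knockout group, of 4 arrays, comprises Mutant_175, Mutant_182, Mutant_187 and Mutant_188. The wild type group, of 3 arrays, comprises Wild Type_181, then Wild Type_183 and Wild Type_189. Values per array below keep these orders. All were adult female mice given tamoxifen. The knockout animals carried a tamoxifen-activated Cre recombinase under a myosin heavy chain promoter, which deletes Brg1 in cardiomyocytes, on a background already null for Brm. The sources are labelled Tg for the knockout and NTg for the wild type hearts, and whether the wild type animals carried Brm is not stated. Deletion of Brg1, the activated Cre and any difference in Brm therefore fall together in the comparison and cannot be told apart. Cardiomyocytes are named as the cell type but heart as the source, and the RNA kit was one for tissue. Nothing beyond the sample numbers says that each array is a separate animal, so a p-value here reflects the spread among these samples, which may be technical, and the small number of arrays limits every value.

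ATF4 is the main effector of the integrated stress response. Kinases that sense amino acid shortage, misfolded protein in the endoplasmic reticulum (ER), double-stranded RNA or heme deficiency and mitochondrial stress phosphorylate the translation factor eIF2, which slows protein synthesis in general while it favours translation of the Atf4 message. ATF4 protein pairs with other basic leucine zipper (bZIP) factors and binds C/EBP-ATF response elements to switch on amino acid synthesis and import, and further stress factors. In the heart the response is known from mitochondrial and ER stress. The arrays measured messenger RNA only, not ATF4 protein.

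Each array held 59305 non-control spots, of which 58.1% to 63.6% were well above background. Signals are given relative to the array's own 75th percentile, so a value of 1 is the signal at that percentile. Fold changes are log2 differences, knockout minus wild type, and a gene or probe is called where limma's Benjamini-Hochberg adjusted p was under 0.05. Over 22971 genes, 16.3% were called higher, 25.8% lower and 42.1% in either direction, so calls were common throughout. The median log2 fold change of all genes was -0.12. Calls were 38.7% higher with this scaling, 49.5% when the percentile was taken over probes detected on every array, and 83.0% when arrays were scaled to spike-in RNA, which shifted fold changes upward by 0.56. Directions are therefore relative to each array's 75th percentile. Smarca4 had a signal of 5.87 to 14.9 in knockout arrays and 32.8 to 34.7 in wild type arrays, a log2 fold change of -1.87, and Smarca2 had 1.89 to 2.21 in knockout and 1.82 to 2.04 in wild type arrays, a log2 fold change of 0.08 that was not called (adjusted p = 0.59, limma). Whether any of their probes lies in a deleted exon is not known, so these values check the labels only in part.

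Within this setting the factors and the targets did not move as one. Of the 9 members that could be tested, 5 rose in knockout hearts (background 16.3%), namely Nupr1, Atf3, Asns, Atf4 and Ddit3. Chac1 was the 1 member that fell (background 25.8%), so 6 of 9 were called (background 42.1%). The members were chosen with earlier results of these data known, so the background shares are given for scale and test nothing. Without Wild Type_181, 3 members were called higher. Ddit4, Trib3 and Atf5 were not called, and Fgf21 was too dim to test. The groups of arrays did not overlap for 5 of the 9, where 51.1% of all genes tested showed no overlap. The 5 transcriptional regulators (Atf3, Atf4, Atf5, Ddit3, Nupr1) had 4 called higher and 0 lower, and the other targets tested (Ddit4, Trib3, Asns, Chac1) had 1 called higher and 1 lower.

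**Figure D1:**
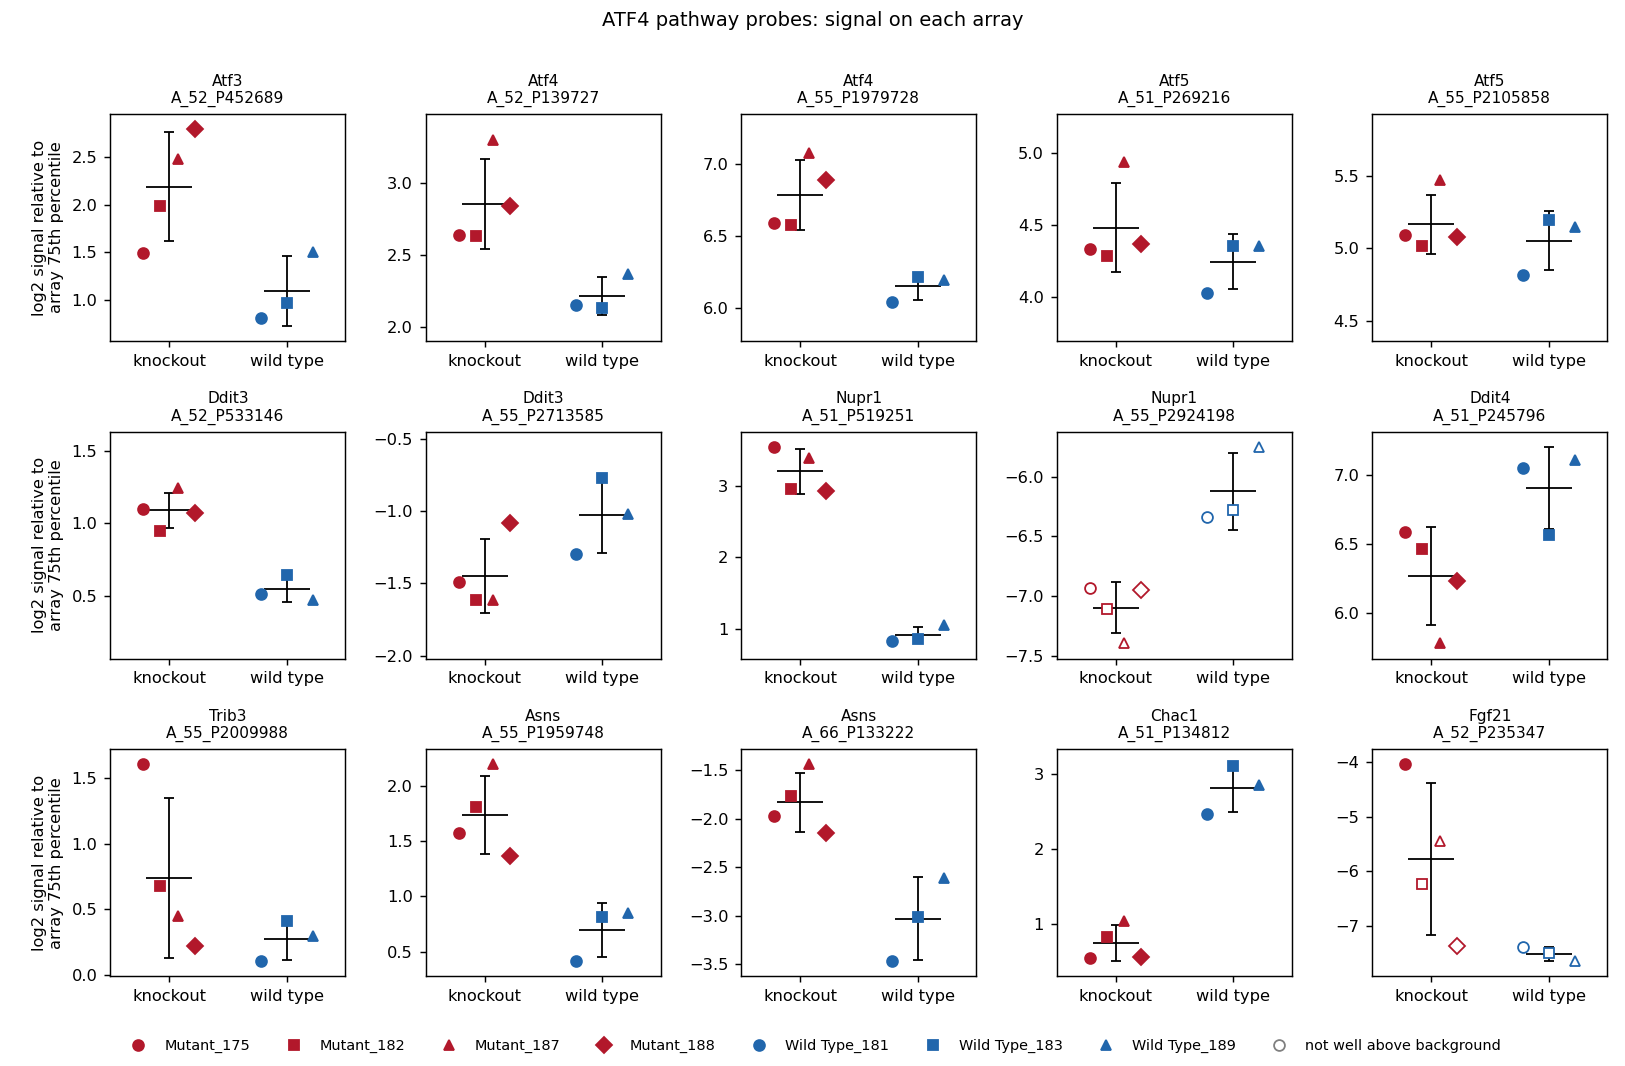
Log2 of the signal over the 75th percentile of its array for each of the 15 probes, with a separate vertical scale in each panel; red points are the 4 knockout arrays, blue points the 3 wild type arrays, open points spots not well above background, and black bars the mean and SD. Nupr1 (first probe) and Asns were higher on every knockout array, Chac1 was lower on every knockout array, and Fgf21 was well above background on 1 array.

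Atf4 itself was measured by a pair of probes for the same transcript, NM_009716, on chromosome 15. The brighter one, at 80087902 to 80087961 of mouse build mm9, gave 96.1, 95.4, 135 and 119 in the knockout arrays, against 66.0, 74.2 and 73.2 in the wild type arrays. All 4 knockout arrays lay above all 3 wild type arrays, with Mutant_187 highest. This was a log2 fold change of 0.63 (SE 0.15, 95% interval 0.27 to 0.99, adjusted p = 0.014, limma), or 1.55-fold. The call was lost without Wild Type_181, at 0.58 (adjusted p = 0.058, limma). The second probe, which starts at base 832 of the transcript where the first starts at base 1655, lies at 80087079 to 80087138. It gave 6.21, 6.20, 9.82 and 7.15 in the knockout arrays and 4.44, 4.37 and 5.16 in the wild type arrays. Its log2 fold change was also 0.63 (SE 0.19, adjusted p = 0.029 over all probes, limma), so both regions of the message gave the same size.

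Ddit3 encodes CHOP, a C/EBP-family factor that pairs with ATF4. Its probes disagreed. The probe for transcript NM_007837, which spans 304 bases of chromosome 10 (126732518 to 126732821, mm9) and so crosses a splice junction, gave 2.14, 1.93, 2.37 and 2.11 in the knockout arrays and 1.43, 1.56 and 1.39 in the wild type arrays. The groups did not overlap, and the log2 fold change was 0.55 (SE 0.12, adjusted p = 0.0079, limma), or 1.46-fold. A dimmer probe for another annotated transcript, at 126731579 to 126731638, gave 0.326 to 0.474 in the knockout arrays and 0.408 to 0.588 in the wild type arrays. Its groups overlapped, and its log2 fold change of -0.42 (95% interval -0.86 to 0.013, adjusted p = 0.11 over all probes, limma) was not called. With the mean of both probes in place of the brighter one, Ddit3 was no longer called, at 0.06 (adjusted p = 0.73, limma). The rise therefore holds for the spliced-transcript probe and not for the gene's probes together.

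Asns, which makes asparagine and is a classical ATF4 target, also had a pair of probes, on chromosome 6. Its dimmer probe, the dimmer Atf4 probe and the Ddit3 probe that was called are shown because each of these genes was read by a second probe as well, so that a reader can see which stretch of the message gave which value. They start at bases 1396, 832 and 288 of their transcripts and are given 5′ to 3′ as deposited, all in lower case since no base is marked.
Atf4, chr15:80087079-80087138 (mm9, plus strand): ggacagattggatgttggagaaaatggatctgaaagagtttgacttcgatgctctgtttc
Ddit3, chr10:126732518-126732821 (mm9, plus strand, spliced): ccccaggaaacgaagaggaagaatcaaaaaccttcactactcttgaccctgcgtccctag
Asns, chr6:7626110-7626255 (mm9, minus strand, spliced): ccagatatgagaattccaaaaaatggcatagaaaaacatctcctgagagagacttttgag

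The brighter Asns probe, at 7625171 to 7625228 (mm9), gave 2.99, 3.50, 4.58 and 2.58 in the knockout arrays against 1.33, 1.76 and 1.80 in the wild type arrays. Every knockout array was above every wild type array. The brighter probe rose by 1.04 on the log2 scale (SE 0.22, 95% interval 0.53 to 1.55, adjusted p = 0.0074, limma), or 2.06-fold. The probe shown above was much dimmer, at 0.225 to 0.368 in the knockout arrays and 0.0904 to 0.163 in the wild type arrays, and its log2 fold change was 1.20 (SE 0.24, adjusted p = 0.0067 over all probes, limma). The probes thus rose by sizes that lie within each other's intervals.

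Nupr1, a small nuclear stress protein that acts as a transcriptional coregulator, showed the largest rise among the members. Its probe on chromosome 7 (133766978 to 133767037, mm9) gave 11.7, 7.79, 10.5 and 7.60 in the knockout arrays and 1.78, 1.81 and 2.06 in the wild type arrays. The lowest knockout array was several-fold above the highest wild type array. Nupr1 rose by 2.30 on the log2 scale (SE 0.18, 95% interval 1.87 to 2.73, adjusted p = 0.00012, limma), or 4.93-fold, and it stayed between 2.03 and 2.86 in all 19 alternatives of scaling, filtering and left-out arrays. A second Nupr1 probe, for another annotated transcript at 133769416 to 133769475, was not well above background on any array, so it has no fold change.

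Atf3, a bZIP factor that ATF4 induces and that often acts as a repressor, was more variable. Its 1 probe, on chromosome 1 (192994547 to 192994606, mm9), gave 2.81, 3.95, 5.58 and 6.93 in the knockout arrays and 1.75, 1.96 and 2.84 in the wild type arrays. Mutant_175 lay just below Wild Type_189, so the groups overlapped. Atf3 rose by 1.09 on the log2 scale (SE 0.33, 95% interval 0.33 to 1.85, adjusted p = 0.030, limma), or 2.13-fold. The call depended on which array was left out. It held without Mutant_175, at 1.33 (adjusted p = 0.0070, limma), and without Wild Type_189, at 1.30 (adjusted p = 0.037, limma). It was lost in the other fits: the log2 fold change was 0.95 without Wild Type_181, 1.03 without Wild Type_183, 1.16 without Mutant_182, 0.995 without Mutant_187 and 0.89 without Mutant_188, and the adjusted p in these fits was 0.10, 0.096, 0.051, 0.067 and 0.059 (limma).

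Atf5, a related bZIP factor tied to the mitochondrial stress response, was bright and nearly level. Its brighter probe on chromosome 7 (52067627 to 52067686, mm9) gave 34.1, 32.4, 44.4 and 33.9 in the knockout arrays and 28.2, 36.7 and 35.5 in the wild type arrays. The groups overlapped, and only Mutant_187 stood above the wild type arrays. Atf5 had a log2 fold change of 0.11 (95% interval -0.26 to 0.48, adjusted p = 0.60, limma), and the other probe gave 0.24 (adjusted p = 0.36 over all probes, limma). With spike-in scaling Atf5 was called higher, at 0.67 (adjusted p = 0.033, limma).

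Chac1, an enzyme that degrades glutathione and is among the most responsive ATF4 targets in cultured cells, went the other way. Its 1 probe, on chromosome 2 (119179990 to 119180049, mm9), gave 1.45, 1.78, 2.05 and 1.47 in the knockout arrays against 5.51, 8.56 and 7.22 in the wild type arrays. The highest knockout array was far below the lowest wild type array, and all 7 spots were well above background. Chac1 fell by 2.06 on the log2 scale (SE 0.19, 95% interval of the change -2.52 to -1.61, adjusted p = 0.00024, limma), or 4.18-fold lower. It stayed called lower in all 19 alternatives, with log2 fold changes between -2.23 and -1.50, the last with spike-in scaling. With 1 probe, no second region of the Chac1 message was measured.

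Ddit4, which encodes the mTOR inhibitor REDD1, was among the brightest members, on a probe on chromosome 10 (59412486 to 59412545, mm9). It gave 96.1, 88.0, 54.9 and 75.2 in the knockout arrays and 132, 94.5 and 138 in the wild type arrays. Mutant_175 overlapped Wild Type_183. The log2 fold change was -0.64 (95% interval -1.17 to -0.11, adjusted p = 0.056, limma), just outside the threshold. It was called lower without Wild Type_183, at -0.81 (adjusted p = 0.048, limma), and without Mutant_175, at -0.75 (adjusted p = 0.033, limma), while spike-in scaling left -0.08 (adjusted p = 0.82, limma).

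Trib3, a pseudokinase that CHOP and ATF4 induce and that restrains both, differed among the knockout arrays. Its probe on chromosome 2 (152163161 to 152163220, mm9) gave 3.04 in Mutant_175 but 1.60, 1.36 and 1.17 in the other knockout arrays, against 1.08, 1.33 and 1.23 in the wild type arrays. The log2 fold change was 0.47 (95% interval -0.27 to 1.20, adjusted p = 0.27, limma), and 0.18 without Mutant_175 (adjusted p = 0.37, limma). Spike-in scaling gave 1.02 (adjusted p = 0.034, limma). Fgf21, a secreted metabolic hormone, was also highest in Mutant_175. Its probe on chromosome 7 (52869305 to 52869364, mm9) gave 0.0607 in Mutant_175, the single array where it was well above background, and 0.0133, 0.0228 and 0.0060 in the other knockout arrays, against 0.0059, 0.0055 and 0.0050 in the wild type arrays. No fold is given for Fgf21, since the 6 remaining arrays hold signals not well above background.

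**Figure D2:**
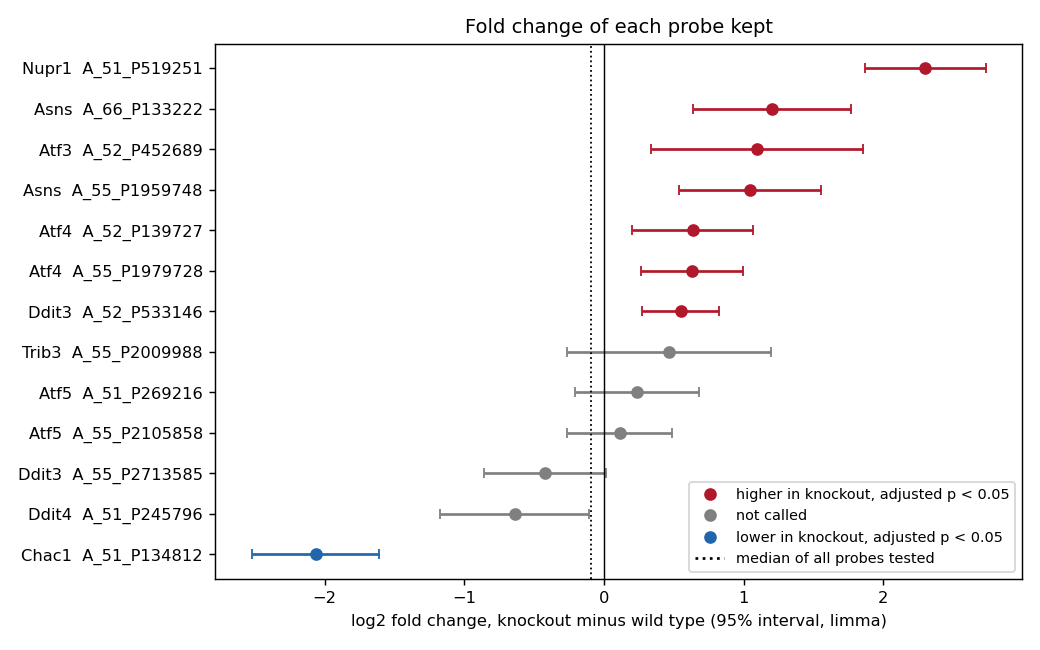
Log2 fold change, knockout minus wild type, with its 95% interval (limma) for the 13 probes that passed the filter on dim signals; red marks probes called higher, blue called lower and gray not called, and the dotted line is the median over all 34481 probes. Of these probes, 7 were called higher and 1 lower, where 16.5% and 24.0% of all probes tested were, and 40.5% in either direction. The groups did not overlap for 7 of the 13, against 49.6% of all probes.

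The knockout array that lay farthest from wild type differed between members. Measured from the wild type mean, the largest deviation among the 4 knockout arrays was in Mutant_187 for 5 of the 9 genes (Atf4, Atf5, Ddit3, Ddit4 and Asns). It was in Mutant_175 for 3 (Nupr1, Trib3 and Chac1) and in Mutant_188 for Atf3. Thus the array with the highest Trib3, Nupr1 and Fgf21 was the one with the lowest Atf3 among the knockouts.

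The promoters are shown because the letters of the element that ATF4 binds occurred both in members that rose and in the member that fell. In RefSeq promoter windows of build GRCm38.p6, from 250 bases before to 50 bases after each start, the letters TGATGNAA were searched on both strands. They occurred in 3.97% of 32851 windows and in 6 of the 10 members, namely Atf3, Nupr1, Trib3, Asns, Chac1 and Fgf21. A member was counted where any of its windows held a match, so this count and the share of windows have unlike units. The members were also chosen as ATF4 factors and targets, so setting them beside that share tests nothing. The reading was TGATGCAA in Atf3, Nupr1, Chac1 and Fgf21, TGATGAAA in Asns and TGATGTAA in Trib3. The cyclic AMP response element TGACGTCA, which shares no full match with it, occurred in 1.79% of windows and in 0 of the 10. The windows below are on the gene's strand, 5′ to 3′, with the match in capitals; where it reads on the opposite strand, the capitals are its reverse complement.
Atf3, chr1:191183416-191183463 (minus strand): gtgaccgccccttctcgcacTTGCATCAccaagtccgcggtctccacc
Nupr1, chr7:126625553-126625600 (minus strand): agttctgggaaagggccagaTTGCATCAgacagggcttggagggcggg
Chac1, chr2:119351029-119351076 (plus strand): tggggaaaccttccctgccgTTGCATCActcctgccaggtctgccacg
Fgf21, chr7:45615602-45615649 (minus strand): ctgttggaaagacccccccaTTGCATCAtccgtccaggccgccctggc
Asns, chr6:7693210-7693252 (minus strand): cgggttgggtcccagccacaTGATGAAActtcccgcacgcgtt
Trib3, chr2:152344028-152344057 (minus strand): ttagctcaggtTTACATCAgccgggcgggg

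The match began 110 bases before the start in both Atf3 and Nupr1, 193 before it in Chac1, 139 in Fgf21 and 23 in Asns, and 15 bases into the transcript in Trib3. Nupr1 and Chac1 carry the same 8 letters in the same orientation, and they were the members with the largest rise and the largest fall. Their full 250 bases before the start are given for that reason.
Nupr1, chr7:126625471-126625720 (minus strand): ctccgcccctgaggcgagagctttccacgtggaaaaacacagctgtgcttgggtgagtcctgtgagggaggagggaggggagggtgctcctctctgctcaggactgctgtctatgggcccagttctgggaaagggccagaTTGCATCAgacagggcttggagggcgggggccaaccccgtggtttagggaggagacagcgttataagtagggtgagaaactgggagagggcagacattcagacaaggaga
Chac1, chr2:119350992-119351241 (plus strand): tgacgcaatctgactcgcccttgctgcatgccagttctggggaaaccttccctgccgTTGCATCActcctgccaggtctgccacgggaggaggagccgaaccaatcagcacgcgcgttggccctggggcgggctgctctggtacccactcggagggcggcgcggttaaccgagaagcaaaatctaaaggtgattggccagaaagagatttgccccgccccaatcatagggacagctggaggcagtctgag

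A match in these letters is a description and not a measured binding site. Over all genes tested that have a promoter window, 78 of 422 with a match were called higher (18.5%) and 111 lower (26.3%). Among 13054 genes without a match the shares were 18.2% higher and 27.3% lower. The shares with and without the letters thus lay close together, and their difference was not tested.

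Beyond the members, lists of genes around ATF4 are set beside the 16.3% of all genes called higher and 25.8% called lower. These lists too were chosen with earlier results of these data known, so the shares are given for scale. With spike-in scaling, 8271 of the 22971 genes were called higher and 1700 lower. The spike-in counts of the lists below are to be read beside those numbers. Of 12 genes of amino acid and one-carbon synthesis, 5 were called higher, 3 lower (5 without Mutant_175) and 4 not called, and the median was -0.10 beside -0.12 over all genes. With spike-in scaling the list had 6 higher and 1 lower and a median of 0.46, beside 0.44 over all genes. Psat1, of serine synthesis, gave 5.62 to 15.0 in the knockout arrays and 0.481 to 0.593 in the wild type arrays, a rise of 4.09 on the log2 scale (SE 0.30, adjusted p = 9.2e-05, limma). Mthfd2, a mitochondrial folate enzyme, gave 1.07 to 2.41 in knockout and 0.155 to 0.240 in wild type arrays, a rise of 3.09 on the log2 scale (SE 0.30, adjusted p = 0.00028, limma). Pycr1, of proline synthesis, was well above background on 4 knockout and 0 wild type arrays, so it passed the filter through the knockout arrays alone. Its knockout mean was 5.94-fold above a floor set by the dimmest detected probe of each wild type array. The adjusted p of 0.00064 (limma) belongs to the fit on the undetected wild type signals and not to that fold. With detection required on all arrays, the list had 4 called higher. Against these, Gpt2 (alanine transaminase) fell by 1.68, Aldh1l2 (a mitochondrial folate enzyme) by 1.34 and Got1 (aspartate transaminase) by 1.04 on the log2 scale.

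Amino acid transporters that ATF4 regulates leaned higher, with 6 of 10 tested called higher and 2 lower (median 0.79). The size of this lean varied. With a gene's probes averaged, 4 were called higher and the median was 0.45. With detection required on all arrays the median was 0.62, and leaving out any 1 wild type array gave 5 higher. Slc38a1 and Slc38a2, carriers of glutamine and other neutral amino acids, rose by 1.40 and 1.02, and Slc6a9, a glycine carrier, rose by 1.26 on the log2 scale. A second Slc38a2 probe was not called, at -0.21. Slc7a5 and Slc7a1, carriers of large neutral and of cationic amino acids, fell by 0.50 and 0.56, but these calls were fragile. The list had 0 lower with spike-in scaling, with the percentile of detected probes, and without Wild Type_183, Wild Type_189 or Mutant_182, and 1 lower without Wild Type_181, Mutant_187 or Mutant_188. The cytosolic aminoacyl-tRNA synthetases had 1 of 20 called higher and 5 lower, and their median was 0.09. Leaving out any 1 wild type array gave 3 lower, and leaving out Mutant_188 gave 2 higher. Aars rose by 0.91, while Qars, Dars and Farsb fell by 0.69, 0.59 and 0.54. A second Aars probe at 0.20 and a second Qars probe at -0.05 were not called. Scaling to spike-in RNA, which shifted fold changes upward by 0.56, turned these counts to 11 higher and 0 lower.

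**Figure D3:**
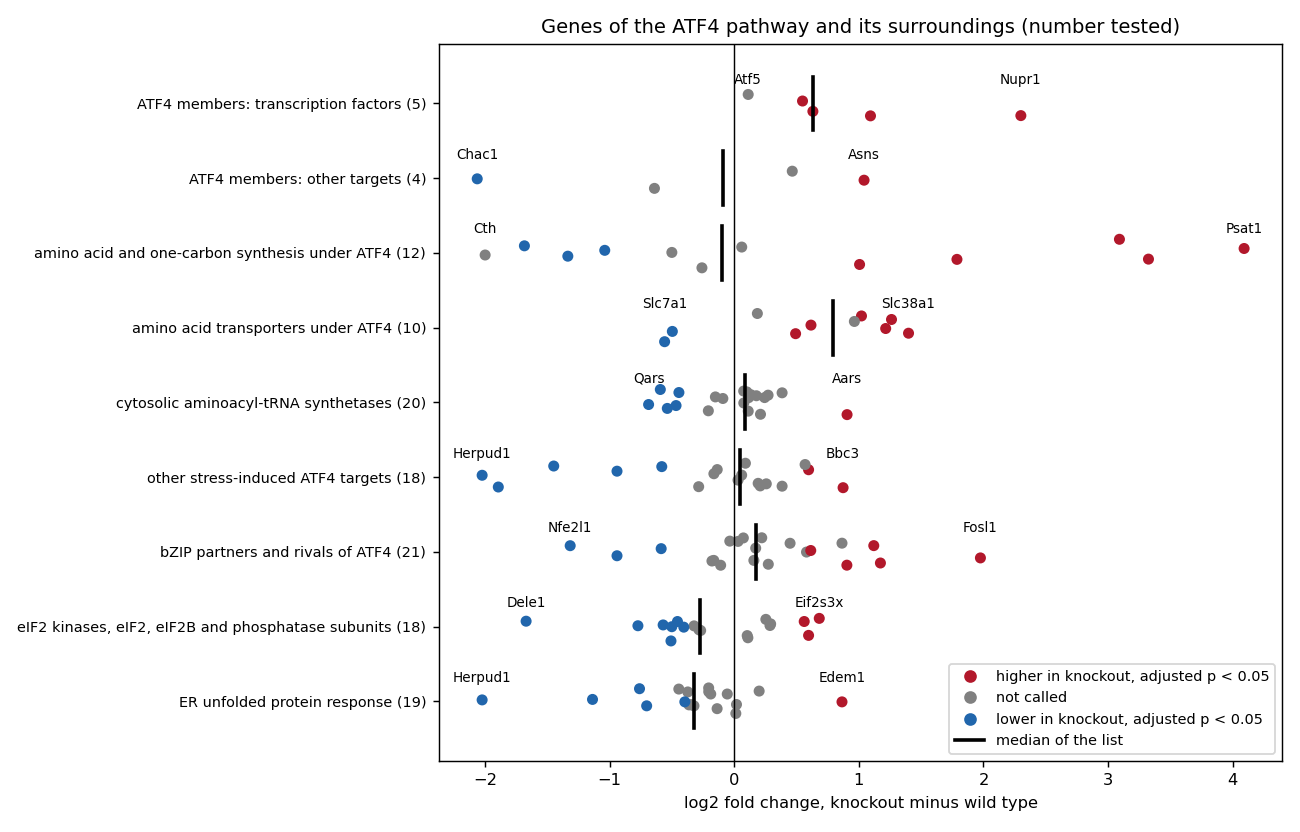
Log2 fold change, knockout minus wild type, of each gene tested in 9 lists around ATF4, with the number tested in brackets; points are genes, red called higher, blue called lower and gray not called, and black bars are list medians. The amino acid synthesis list reaches from Cth, which was not called and is named for its position, at the left end to Psat1 at 4.09, and Herpud1 lies at the left end of the ER list.

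Other stress-induced targets had 2 of 18 called higher and 5 lower (median 0.045, and -0.013 without Mutant_175). The higher count was 1 without Wild Type_181 or Wild Type_183 and 4 without Mutant_175 or Mutant_188. Herpud1, of ER-associated degradation, gave 16.0 to 25.5 in the knockout arrays and 79.6 to 84.5 in the wild type arrays, a change of -2.02 on the log2 scale (SE 0.17, adjusted p = 0.00014, limma). Gadd45a, a growth arrest gene, fell by 1.45 and Cebpb, a bZIP partner of ATF4, by 0.94, while Ppp1r15a, the stress-induced eIF2 phosphatase subunit, rose by 0.60 and Bbc3, a cell death gene, by 0.87. With spike-in scaling and its upward shift of 0.56, the counts were 7 higher and 3 lower. Gdf15, a secreted stress hormone picked here after its values were seen, gave 0.534 to 1.18 in the knockout arrays and 0.526 to 0.650 in the wild type arrays and was not called, at 0.26 (adjusted p = 0.48, limma).

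The ER unfolded protein response had 1 of 19 genes called higher and 5 lower (median -0.32). Leaving out any 1 wild type array gave 3 lower, and the median was -0.18 without Wild Type_183 and -0.19 without Mutant_175. With spike-in scaling these were 2 higher and 1 lower and the median was 0.24, so the sign of the list median depends on the scaling. The median over all genes was -0.12, and 0.44 with spike-in scaling. The list median lay below that of all genes under both scalings. Besides Herpud1, Hspa5 (the ER chaperone BiP) gave 42.9 to 79.1 in the knockout arrays and 110 to 152 in the wild type arrays, a change of -1.14 on the log2 scale (SE 0.22, adjusted p = 0.0057, limma). Hsp90b1, another ER chaperone, fell by 0.76, and Edem1, of ER-associated degradation, rose by 0.86. With spike-in scaling the gene still called lower was Herpud1, at -1.46 (adjusted p = 5.8e-04, limma), so Hspa5 and Hsp90b1 were not called lower there. Sensors and regulators of eIF2 had 3 of 18 higher and 7 lower (median -0.28). With spike-in scaling they had 8 higher and 1 lower (median 0.28, beside 0.44 over all genes). The lower count was 4 without Wild Type_183 or Wild Type_189, and the higher count was 2. Eif2ak3, the ER stress kinase PERK, rose by 0.56, as did Eif2s3x, an eIF2 subunit, by 0.68. Dele1 and Oma1, which relay mitochondrial stress to an eIF2 kinase, fell by 1.67 and 0.77, and Eif2b4, of the eIF2B complex, fell by 0.50. Second probes of Eif2ak3 and Eif2s3x, both at 0.14, and of Eif2b4, at -0.22, were not called. Among the bZIP partners and rivals of ATF4, 5 of 21 were called higher and 3 lower (median 0.17). Fos rose by 1.17 and Maf by 0.61 (1 of its 3 probes was called). Fosl1 was well above background on 4 knockout and 0 wild type arrays, so it too passed the filter through the knockout arrays alone. Its knockout mean was 1.86-fold above the floor of the wild type arrays. The adjusted p of 0.0017 (limma) belongs to the fit on undetected wild type signals and not to that fold. With detection required on all arrays, the bZIP list had 4 called higher. With spike-in scaling and its upward shift of 0.56, this list had 11 higher and 1 lower. Nfe2l1 fell by 1.32 and Atf2 by 0.59, beside Cebpb. Of the other named genes, Oma1 and Atf2 each had another probe with a log2 fold change of the opposite sign, at 0.14 and 0.04, and neither of those was called.

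Some genes outside the members followed Atf4 closely over the 7 arrays. Nearness was the root mean square difference of log2 deviations from the wild type mean, with predicted and clone names left out. The nearest of the remaining genes were Slc3a2, the shared heavy chain of amino acid carriers (0.075), Mitd1 (0.077), Gfpt2 (0.081) and Mmp17 (0.084). For Atf3 they were Nppb, the natriuretic peptide BNP (0.186), Gabra5 (0.188), Tmem238 (0.213) and Cyb561 (0.239). These distances are descriptions over the same arrays and carry no test. They rest on the brightest probe of each gene. With probes averaged, Slc3a2 had a log2 fold change of 0.29 (adjusted p = 0.079, limma) in place of 0.62, where Atf4 kept 0.63.

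Cell type markers moved between the groups as well. All 10 cardiomyocyte markers were well above background in both groups, and their summed relative signal was 2449 to 3211 in the knockout arrays and 5227 to 5669 in the wild type arrays, with 8 of 10 called lower. Fibroblast markers summed to 597 to 832 in the knockout arrays and 299 to 330 in the wild type arrays, with 8 of 8 higher, and macrophage and monocyte markers to 121 to 230 in knockout and 108 to 119 in wild type arrays, with 7 of 10 higher. Smooth muscle and pericyte markers summed to 444 to 536 in the knockout arrays and 102 to 120 in the wild type arrays (3 of 8 higher, 1 lower). This sum does not describe the set, whose median log2 fold change was 0.47. Acta2 rose by 3.44, Cspg4 by 1.24 and Pdgfrb by 0.59, and Kcnj8 fell by 0.83. Myh11, Tagln, Cnn1 and Rgs5 were not called. The sums of endothelial markers were 51.9 to 75.2 in knockout and 52.6 to 56.2 in wild type arrays (1 of 7 higher, 2 lower). Those of neutrophil markers were 38.4 to 52.2 in knockout and 48.4 to 52.2 in wild type arrays (0 of 6 higher, 1 lower). The neutrophil median was nevertheless 0.71 on the log2 scale. S100a8, S100a9, Mpo and Elane had positive fold changes that were not called, and Csf3r was the gene called lower. Lymphocyte markers summed to 9.01 to 13.6 in knockout and 6.62 to 8.96 in wild type arrays (2 of 4 higher). In such tissue RNA, fewer cells of a type and less RNA per cell cannot be told apart, and the part of these markers in the members' changes was not tested.

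**Figure D4:**
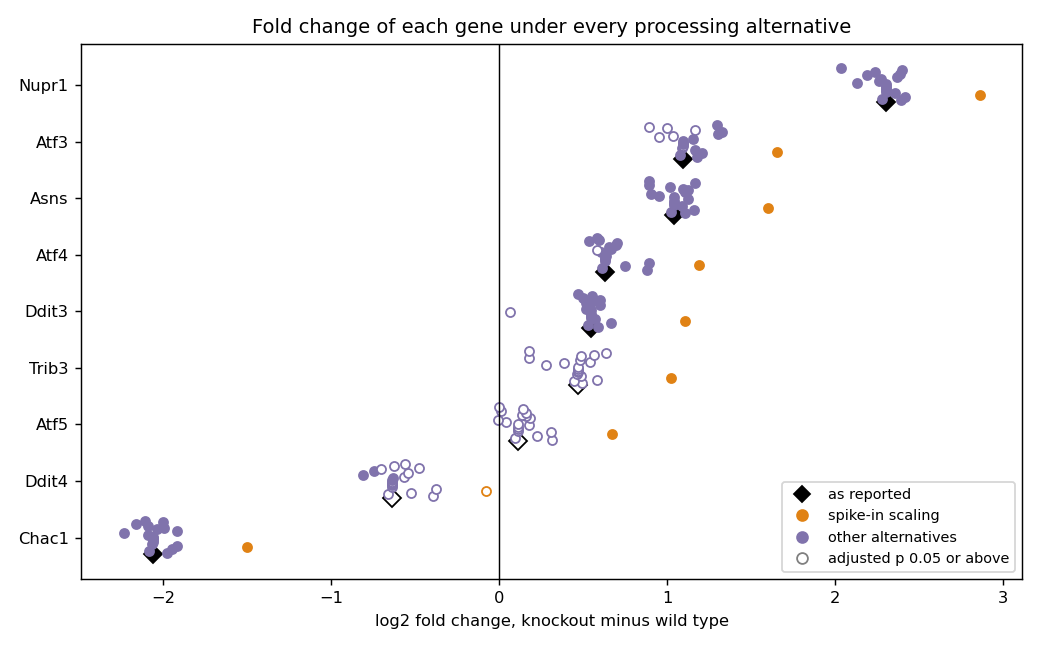
Log2 fold change, knockout minus wild type, of the 9 members tested under the reported processing (black diamonds), spike-in scaling (orange) and each other alternative (purple), with open symbols where the adjusted p was 0.05 or above. Nupr1 and Asns stay on the right and Chac1 on the left of 0 with every symbol filled, Atf5 crosses 0, and Atf3 has 6 open symbols.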

How the data were processed

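Heart RNA was labelled with Cy3 and hybridised to 1-colour Agilent mouse arrays (4 knockout, 3 wild type). Per the file headers, the deposited processed signal is a background-corrected linear intensity from Agilent Feature Extraction 10.7.3.1, and its other columns (flags, names, positions) use build mm9. The authors' value table holds the same intensity (99.6% of cells within 0.01 log2), unscaled, with column medians of 61.1 to 83.3 in knockout and 45.9 to 50.8 in wild type arrays. Outlier spots were left out, spots of a probe averaged, and log2 signal taken minus the array's 75th percentile. Probes detected (flagged well above background) on 3 or more arrays were kept (34481, and 13 of the 15 member probes), and each gene took its brightest kept probe, named through its accession where RefSeq (GRCm38.p6) held it (32994 probes). Genes and probes were fitted with limma 3.58.1 in R 4.3.3 (lmFit, eBayes) on all 7 arrays without covariates, and tested on simulated data. No replicate number is shared between groups, and all arrays lie on 1 slide with 1 scan. Alternatives were other scalings (quantile, median, percentile of probes detected on every array, 7 spike-in probes), normexp with offset 50, the value table, filters, probe averaging, variance models and left-out arrays. The members and lists were chosen with earlier results of these data known. Besides the members, the genes named were up to 3 with the smallest p in each direction of each list. The 4 nearest to Atf4 and to Atf3, predicted and clone names left out, were named as well. Figures used matplotlib 3.10.9.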

Additional observations from a re-analysis of the deposited data

Results flagged for a closer look

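In both Atf5 probes 1 knockout array, Mutant_187, stood apart from the other knockout arrays. Its gap to the nearest of them took up 0.874 of the knockout group's range for the probe at 52067718 to 52067777 and 0.84 for the one at 52067627 to 52067686, above Dixon's 95% critical value for 4 samples. These were 2 of 15 probes examined, and chance flags about 1 in 20. Both probes read the same transcript on the same arrays, so they are not independent.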

How the results depend on the processing

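Over the 19 alternatives Nupr1 and Asns stayed called higher and Chac1 stayed called lower. The Atf5 fold change, never called except with spike-in scaling, changed sign without Wild Type_181 (-0.0066, with 1 array left out the range was -0.0066 to 0.183) and without Mutant_175 and Mutant_187 together (-0.0039), as did that of Smarca2 when a gene's probes were averaged (-0.046). Member genes called higher numbered 5, 7 with spike-in scaling, 4 without a filter on dim probes or with probes averaged, and 3 to 5 when 1 array was left out. Those called lower numbered 1, and 1 to 2 with 1 array left out, and 2 with the filter over all arrays, the trended robust prior or array weights, where Ddit4 was added. Probes called higher numbered 7, 10 with spike-in scaling, 5 without the filter, and 4 to 7 with 1 array left out. Probes called lower numbered 1, and 1 to 2 with 1 array left out, and 2 without a filter on dim probes, with the filter over all arrays, the trended robust prior or array weights. Without the filter, Ddit4 was not called as a gene (adjusted p = 0.097, limma). That fit also takes in undetected probes, such as the second Nupr1 probe, so its extra call carries little weight. The lowest counts of higher calls came without Wild Type_181. Over all genes, 3749 higher and 5932 lower became 8271 and 1700 with spike-in scaling, and ranged over 2645 to 4529 and 4087 to 6775 with 1 array left out. Without a filter on dim probes Atf3 was not called (adjusted p = 0.054, limma), and with a gene's probes averaged Slc3a2 was not (adjusted p = 0.079, limma). The causes were not tested. No paired analysis was possible because the groups share no replicate numbers. Signals near background limit Fgf21 and the second Nupr1 probe.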
